A study of Mus musculus with 2 samples.

Results

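CHD2 binding sites that lay deep inside protein-coding genes, far from any annotated gene start, made up 1626 of 8282 peaks (19.6%, exact 95% interval 18.8 to 20.5) in ES-E14 mouse embryonic stem cells. A site was counted when its summit lay between the start and end of at least 1 protein-coding gene. The summit also had to be over 10 kb from every protein-coding 5′ end of GRCm38 whose strand was known. The counted sites formed 44.5% of the 3656 peaks that were over 10 kb from every such 5′ end. The others of those, 2030 peaks between genes, are called intergenic here, and 2893 peaks within 1 kb of a 5′ end are called promoter peaks. CHD2 was mapped by ChIP-seq with a CHD2 antibody in the male line E14, strain 129/Ola, with 2 biological replicates in 1 group. Both replicates carry the same biosample label, so separate cultures are not shown by the labels. The peaks come from the authors' optimal list on mm10, made from both replicates, and each replicate also had its own relaxed list of 300000 peaks. No untreated, mutant or control sample was analysed here, the number of reads is not known, and the intervals given reflect counting error alone. Peak lists hold no expression, so the cell type rests on the labels.

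CHD2 is a chromodomain helicase that uses ATP to move or assemble nucleosomes, and mutations of the human gene cause a childhood epilepsy. Chromatin remodellers of its family are found mostly at active promoters, where nucleosomes turn over. A site inside a gene body can be an enhancer, a promoter of a shorter transcript of the same gene, or the start of another RNA, and peak lists alone do not separate these.

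Sequences under gene-body summits, most of them strong, are shown for 2 kinds of window that were selected separately. These are windows beside a start of a shorter transcript and windows within introns. The first 4 lie at internal starts, on the strand of the gene, and were read from RefSeq windows of GRCm38.p6. Capitals mark the matches to the motifs searched, which here are CCAAT in either orientation (ATTGG is the same letters read on the other strand), the palindrome CTCGCGAG and the GC box GGGCGG. The CCAAT letters are the core of the box bound by the trimeric factor NF-Y, CTCGCGAG is the core of an element bound by Banp and listed for Zbtb33, and GGGCGG is bound by Sp factors. Arntl at chr7:113207228-113207328 (+) carries CCAAT letters at 2 places, Ift74 at chr4:94614358-94614458 (+) carries CTCGCGAG and CCAAT, Taok1 at chr11:77607867-77607967 (-) carries CTCGCGAG, and Slc15a4 at chr5:127617376-127617476 (-) carries CTCGCGAG and a GC box.
Arntl: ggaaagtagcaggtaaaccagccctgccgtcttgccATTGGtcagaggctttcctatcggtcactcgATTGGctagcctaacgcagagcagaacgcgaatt
Ift74: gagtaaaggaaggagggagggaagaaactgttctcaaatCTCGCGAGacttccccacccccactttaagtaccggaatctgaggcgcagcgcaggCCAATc
Taok1: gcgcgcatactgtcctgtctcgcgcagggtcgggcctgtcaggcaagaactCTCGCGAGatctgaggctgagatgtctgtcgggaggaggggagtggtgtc
Slc15a4: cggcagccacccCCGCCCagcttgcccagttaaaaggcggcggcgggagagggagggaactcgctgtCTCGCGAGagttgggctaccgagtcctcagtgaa

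The next 5 lie within introns over 1 kb from every annotated transcript start and come from the NCBIM37 (mm9) genome, plus strand, 101 bp centred on summits of the separate mm9 list. Ssc5d at chr7:4894984-4895084, listed in GENCODE M1 under its synonym A430110N23Rik, is in intron 13. Atrnl1 at chr19:57742675-57742775 is in intron 9, and Cdyl2 at chr8:119194596-119194696 and Sult2b1 at chr7:52999925-53000025 are in intron 1 of their genes. Intron numbers are the lowest over the transcripts of each gene. Capitals mark CCAAT in Ssc5d, Atrnl1 and Cdyl2, and ACATTCC, the letters bound by TEAD factors, in Sult2b1. Strong intronic windows of Kdm2b and another of Ssc5d, with CCAAT, are not shown. Nor are those of Myo5c, with the CTCF core, and Fbxl5, with the letters bound by NRF1. The Cdyl2 window holds CCAAT at 3 places, each 30 bp from the next, in a tandem repeat. The window of Esrrb at chr12:87842617-87842717, chosen after its values were seen, holds TCAAGGTCA on the minus strand, the letters bound by the Esrrb protein itself.
Ssc5d: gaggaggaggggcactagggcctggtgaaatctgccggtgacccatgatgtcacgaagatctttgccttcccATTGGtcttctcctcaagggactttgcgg
Atrnl1: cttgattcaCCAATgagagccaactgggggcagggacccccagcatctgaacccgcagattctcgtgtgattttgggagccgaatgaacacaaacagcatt
Cdyl2: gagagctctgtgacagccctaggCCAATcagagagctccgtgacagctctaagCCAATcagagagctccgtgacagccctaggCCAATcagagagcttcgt
Sult2b1: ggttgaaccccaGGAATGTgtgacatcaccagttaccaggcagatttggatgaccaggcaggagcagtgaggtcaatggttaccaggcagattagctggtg
Esrrb: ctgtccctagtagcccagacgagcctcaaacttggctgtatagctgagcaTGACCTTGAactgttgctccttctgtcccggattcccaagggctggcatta

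The strongest gene-body peak lay inside Arntl, which encodes the clock factor Bmal1. Its signal, the caller's own value per peak, was 113 in replicate 1, 154 in replicate 2 and 269 in the optimal list. Its summit lay 28807 bp from the 5′ end of the gene and 187 bp from an internal start. Zmat3, a p53 target that encodes an RNA-binding zinc finger protein, followed with 147 in replicate 1, 97.1 in replicate 2 and 245 in the optimal list. Its summit was 24019 bp from the 5′ end and had no RefSeq start within 1 kb. Signals of different lists have no shared scale, so values are compared only within a list.

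Ssc5d, a scavenger receptor gene of 19700 bp, held 2 of the 12 strongest peaks. One had 134 in replicate 1, 96.1 in replicate 2 and 234 in the optimal list, and the other 109, 93.7 and 203 in the same lists. Both lay close to the 3′ end, 1396 and 4662 bp from it. Ift74, a gene of transport within cilia, had 115 in replicate 1, 107 in replicate 2 and 218 in the optimal list, 83 bp from an internal start. The kinase gene Taok1 had 94.0 in replicate 1, 102 in replicate 2 and 193 in the optimal list, 102 bp from an internal start. Slc15a4, a lysosomal transporter of peptides and histidine, had 96.6 in replicate 1, 91.1 in replicate 2 and 189 in the optimal list, 34 bp from an internal start. Thus 4 of these 12 peaks lay at an internal start.

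Atrnl1, a relative of the attractin gene, had 120 in replicate 1, 90.1 in replicate 2 and 212 in the optimal list. Cdyl2, which encodes a chromodomain protein, had 78.4 in replicate 1, 74.5 in replicate 2 and 153 in the optimal list. Pstpip2, an adaptor of the actin cytoskeleton, had 113 in replicate 1, 117 in replicate 2 and 227 in the optimal list. The last of the 12 were a summit shared by Acad11 and the chemokine-scavenging receptor gene Ackr4, with 105 in replicate 1, 97.5 in replicate 2 and 203 in the optimal list, and Nepro, with 197 in the optimal list. Nepro had the largest difference of rank between replicates within this group, with 146 at rank 125 in replicate 1 and 49.2 at rank 836 in replicate 2. The strand of Nepro was not known here, so its peak has no distance from its own 5′ end. Nepro spans 14556 bp, so any summit inside it lies closer than the distance limit to an end of the gene. Whether that end is the 5′ end is not known, so this peak may not meet the distance rule. With both ends of Nepro used as 5′ ends it would not be counted. All 12 were also in the conservative list, as were 67.7% of all gene-body peaks and 72.4% of all optimal peaks.

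Apart from these strongest sites, the gene-body peaks were weak and had nearly the same signals as intergenic peaks. In the optimal list their signal ran from 5.74 to 269 with a median of 26.7 (quartiles 20.5 and 37.6). The intergenic median was 26.6 and the promoter median 40.2. Within replicate 1 the median was 13.9 for intergenic peaks and 22.0 for promoter peaks, and the gene-body median is given as its ratio to each. Within replicate 2 the median was 14.5 for gene-body peaks, 14.6 for intergenic peaks and 21.0 for promoter peaks. The ratio of the gene-body to the intergenic median was 1.00 in the optimal list, 1.00 in replicate 1 and 0.994 in replicate 2. The ratio to the promoter median was 0.665, 0.636 and 0.692 in the same lists, so the lower level than at promoters was present in both replicates. The 828 strongest peaks of the list took in 3.57% of all gene-body peaks (58), 2.76% of all intergenic peaks (56) and 20.3% of all promoter peaks (586). Peaks are not replicates, and a single group of 2 replicates allows no test between classes, so these differences are descriptions.

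**Figure D1:**
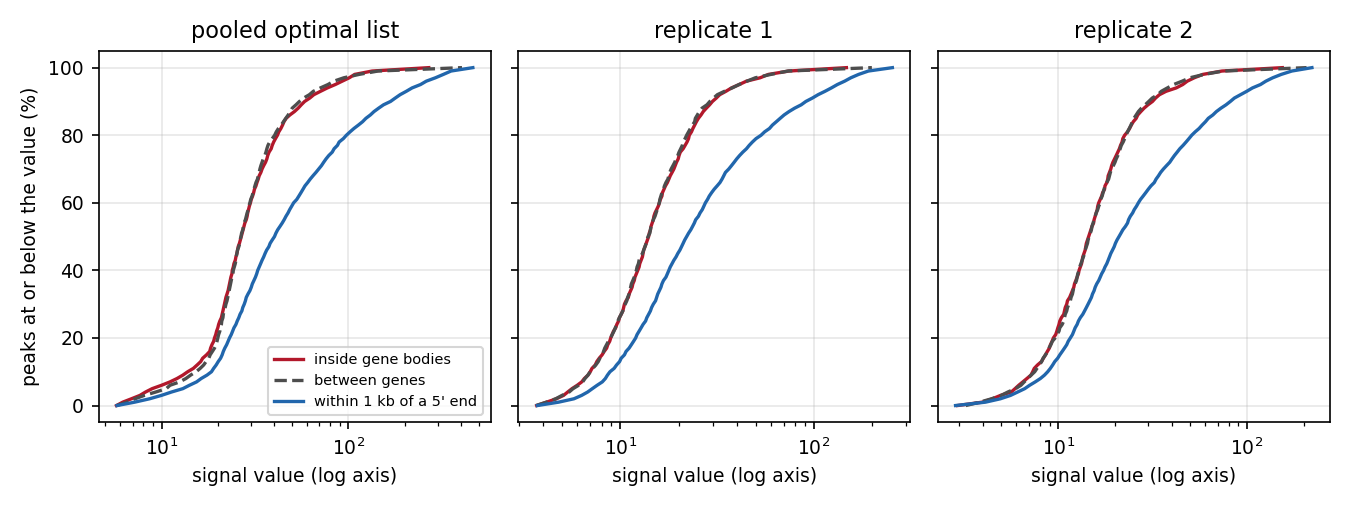
Percent of peaks at or below each signal value (log axis) for peaks inside gene bodies, between genes and within 1 kb of a 5′ end, in the optimal list and at the matching peaks of each replicate. The gene-body and intergenic curves lie on each other in all 3 panels, with medians of 26.7 and 26.6 in the optimal list, and the promoter curve lies at higher values above the lowest few percent.

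Each replicate's 8282 strongest peaks overlapped 65.1% (replicate 1) and 66.5% (replicate 2) of the gene-body peaks. Both replicates did so for 720 of them (44.3%, 41.8 to 46.7), and neither for 206 (12.7%). For intergenic peaks both did so for 44.0%, and for promoter peaks for 67.7%. The optimal list was derived from these replicates, so the overlap is no independent check of it. The share that recurred rose with the optimal signal. That signal comes from the same 2 replicates, so the relation is in part built in. Among the strongest 406 gene-body peaks, with signals of 37.6 to 269, 384 were in the strongest of both replicates (94.6%). Among the weakest 407, with signals of 5.74 to 20.5, 40 were (9.83%). Spearman's rho of the ranks in both replicates was 0.301 across the 1626 gene-body peaks, 0.269 across intergenic peaks and 0.738 across promoter peaks. Gene-body peaks at internal starts had a rho of 0.651 (n = 81), against 0.279 elsewhere in gene bodies (n = 1545). These are descriptions across peaks of the same 2 libraries.

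The largest differences of rank between replicates were at Pigl, Ctdspl and Rwdd4a. The peak in Pigl, a gene of GPI anchor synthesis, had 34.3 and rank 1333 in replicate 1 and no overlapping peak among the 300000 of replicate 2. The peak in Ctdspl, a phosphatase gene, had 25.7 and rank 2024 in replicate 2 and none in replicate 1. Rwdd4a had 24.7 and rank 2148 in replicate 2 and none in replicate 1. In all, 62 gene-body peaks (3.81%) lacked a match in 1 or both relaxed lists, against 3.68% of all peaks of the optimal list.

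Over the whole genome, gene bodies held more peaks per length than the space between genes. Over the 839 Mb of gene body that the distance rule allows there were 1.94 peaks per Mb, against 1.48 intergenic peaks per Mb over 1368 Mb, a ratio of 1.31. Assembly gaps and sequence where reads cannot be placed were not taken out of either length. With each replicate's own 8282 strongest peaks the ratio was 1.32 in replicate 1 and 1.28 in replicate 2. On autosomes alone it was 1.26. Among autosomes the density in gene bodies was highest on chromosome 11 (3.02 per Mb), chromosome 4 (2.73) and chromosome 7 (2.62), and lowest on chromosome 1 (1.25). The order of gene body and intergenic space was not the same everywhere. It was turned round on chromosome 1 (1.25 in gene bodies, 1.30 between genes), chromosome 13 (1.52 and 1.82), chromosome 16 (1.38 and 1.67) and chromosome 17 (1.89 and 2.22).

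The X chromosome stood apart. It held 14 gene-body peaks, 0.372 per Mb, against 2.01 per Mb on autosomes, a ratio of 0.185. Each replicate's own list gave 12 on the X, with ratios of 0.157 in replicate 1 and 0.160 in replicate 2. The same direction was seen between genes, with 0.244 intergenic peaks per Mb on the X and 1.59 on autosomes. It was also seen at promoters, where 5.66% of X genes and 12.6% of autosomal genes had a peak. The median signal of the X gene-body peaks was 24.4, against 26.7 on autosomes. On mm9, 4 of 765 gene-body peaks were on the X (0.523%), whereas 4.16% of protein-coding genes were. ES-E14 is male and so has a single X, and the part of copy number in this difference was not tested.

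The peaks lay in 1172 of the 13961 protein-coding genes longer than 10 kb (8.39%, 7.94 to 8.87). Longer genes held one more often. The share was 1.97% of genes of 10 to 30 kb, 8.53% of genes of 30 to 100 kb, 22.6% of genes of 100 to 300 kb and 33.8% of genes over 300 kb. Per length of allowed gene body the order was the reverse, with 3.34, 2.53, 2.36 and 1.05 peaks per Mb in the same 4 classes. Here a peak inside several genes was counted in each of them, which gave 1685 counts from the 1626 peaks. Replicate 1 gave 3.06, 2.63, 2.35 and 1.12 per Mb and replicate 2 gave 3.23, 2.69, 2.15 and 1.07 per Mb, so the fall in the longest genes was present in both. Genes of 10 to 30 kb offer only 45.8 Mb of allowed body. The 1.05 per Mb of genes over 300 kb was below the 1.48 per Mb between genes.

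**Figure D2:**
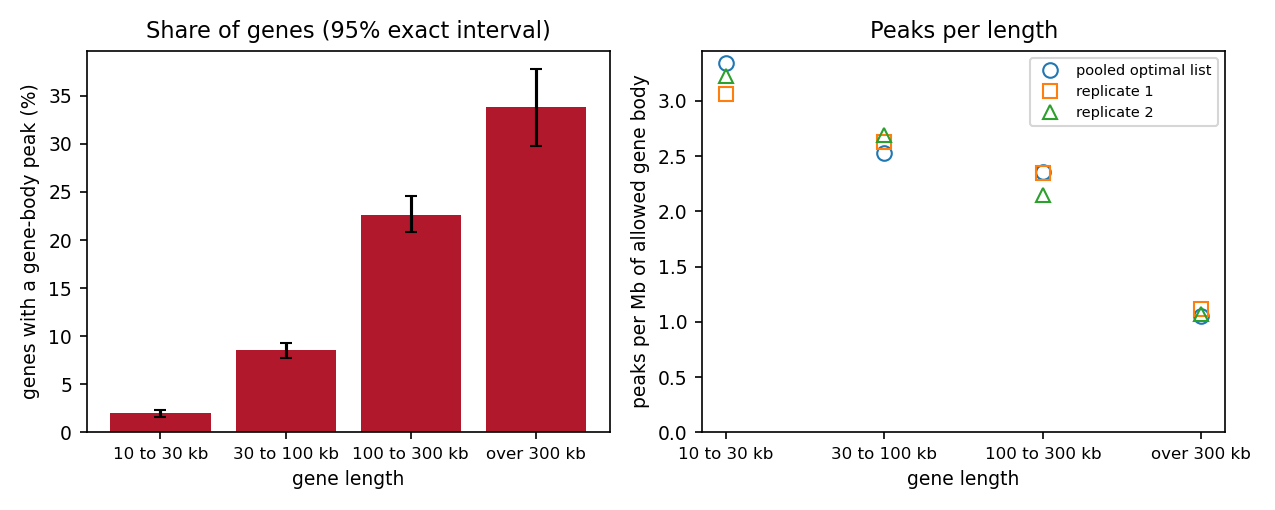
Left, percent of protein-coding genes of each length class that hold a gene-body peak, with exact 95% intervals. Right, gene-body peaks per Mb of allowed gene body in the optimal list and in each replicate's own 8282 strongest peaks. The share of genes goes up from 1.97% to 33.8% with length while the density in the optimal list goes down to 1.05 per Mb in genes over 300 kb. In that density a peak inside several genes counts in each of them.

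A gene with an internal peak had a promoter peak no more often than other genes of its length. Among the 1138 such genes with a known strand, 147 had a peak within 1 kb of their own 5′ end (12.9%), against 16.1% of the other genes over 10 kb. In genes of 30 to 100 kb the shares were 15.5% and 16.0%, and in genes over 300 kb 7.03% and 8.42%, with overlapping intervals. In the 147 genes with both, the inner peak was the stronger in 43 (29.3%). The median signal was 26.0 for the inner peaks and 37.9 for the promoter peaks, and Spearman's rho between them was -0.00899.

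One gene, Zmynd8, held 15 peaks, the most of any. Zmynd8 encodes a reader of histone marks and spans 115 kb at chr2:165784152-165898981. Its signals in the optimal list ran from 7.14 to 40.6 with a median of 19.6. At the matching peaks they ran from 5.54 to 27.2 in replicate 1 and from 3.65 to 29.7 in replicate 2. Some of the 15 peaks overlapped a neighbour, and together they formed 9 separate loci, or 6 when peaks within 1 kb were joined. Of them, 4 were in the strongest of both replicates and 8 were in the conservative list. The peak nearest to the 5′ end, 14271 bp from it and 128 bp from an internal start, was the strongest, with 40.6 in the optimal list, 27.2 in replicate 1 and 13.3 in replicate 2. The next, 89042 bp from it, had 38.8 in the optimal list, 16.2 in replicate 1 and 29.7 in replicate 2. The peaks between 86867 and 87585 bp had 7.14 to 10.3 in the optimal list and ranks of 15060 to 84404 in replicate 1 and of 103792 to 167057 in replicate 2. Zmynd8 had no peak within 1 kb of its own 5′ end.

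**Figure D3:**
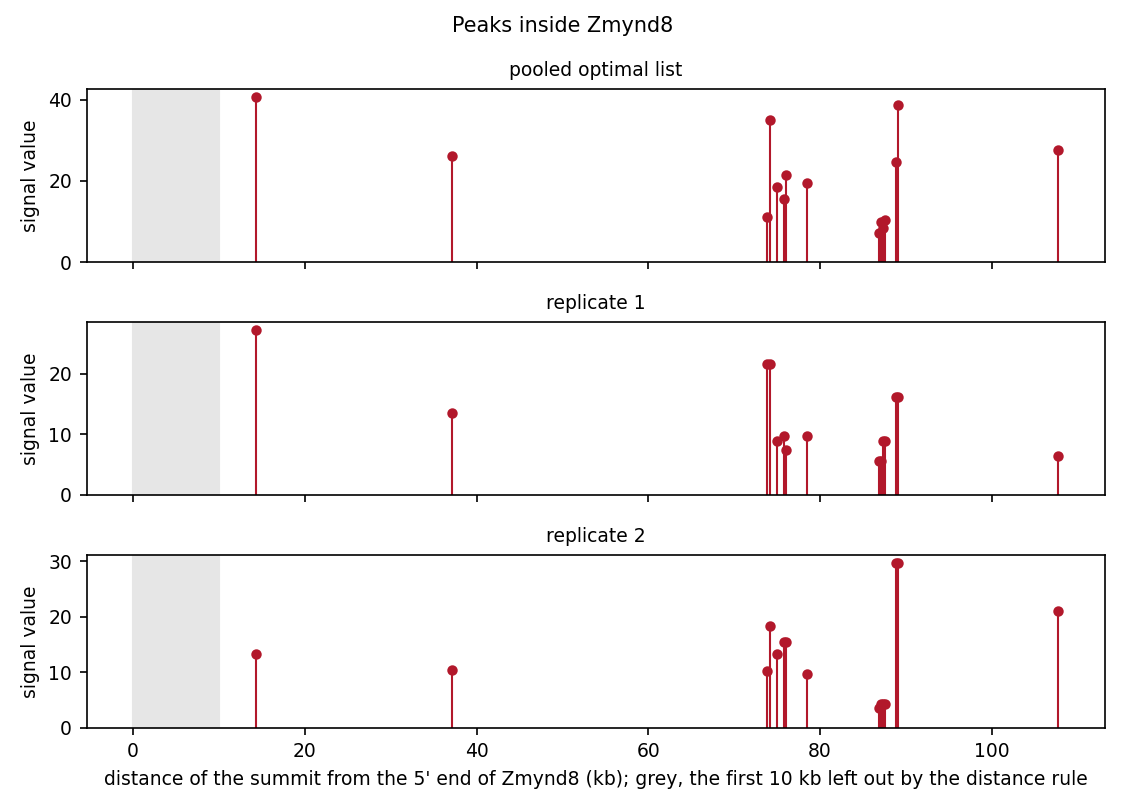
Signal value of each peak inside Zmynd8 against the distance of its summit from the 5′ end of the gene (kb), in the optimal list and at the matching peak of each replicate. The peaks gather at 73868 to 78490 bp and at 86867 to 89042 bp, and neighbours that share a replicate peak show the same value in that panel.

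Etl4 followed with 9 peaks (12.3 to 59.5), then Pde4d, a cyclic AMP phosphodiesterase gene of 1302 kb, with 7 (18.5 to 33.3). Epb41l4a, Pakap and Tns3, a gene of focal adhesions, held 6 each. In Pakap the strongest had 86.3 in the optimal list, 28.1 in replicate 1 and 55.2 in replicate 2. None of these 6 genes had a promoter peak. Of all hosts, 828 held 1 peak and 344 held 2 or more, in part because peaks of the list overlap. Counting overlapping peaks once left 1464 separate loci. There were 18 peaks inside 2 or more genes, and the largest number of genes over 1 peak was 21, in the gamma protocadherin cluster, where many genes share their 3′ part.

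Within their genes the peaks were spread over the whole body. The median distance from the 5′ end of the gene was 55292 bp (quartiles 23283 and 116867) over the 1610 peaks in genes of known strand. When the body beyond the first 10 kb was divided into 5 equal segments from 5′ to 3′, the segments held 2.13, 2.04, 1.79, 1.80 and 1.88 peaks per Mb. Within 1 kb of the 3′ end there were 30 peaks (1.86%), and how much of the gene body lies there was not measured. The farthest was in Dmd, the dystrophin gene, 2262427 bp from its 5′ end, with 20.4 in replicate 1 and 8.98 in replicate 2.

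A minority of the peaks lay at a start of a shorter transcript. Within 1 kb of an internal RefSeq start there were 81 peaks (4.98%, 3.98 to 6.15), and 60 of these were within 250 bp. How much of the allowed gene body lies that close to a start was not measured. The table of starts covers 879 of the 1172 host genes, so the count of peaks is a lower limit. The share was higher among strong peaks. It was 11.1% (6.72 to 17.0) of the strongest 162 peaks, 9 of the strongest 50 (8.58 to 31.4%) and 2.45% (0.673 to 6.16) of the weakest 163. The median signal was 32.7 at internal starts and 26.6 elsewhere in gene bodies, with ratios of 1.23 in the optimal list, 1.27 in replicate 1 and 1.14 in replicate 2. Next after Slc15a4 came Tex9, with 60.5 in replicate 1 and 65.3 in replicate 2, and Psma6, a subunit gene of the proteasome, with 52.6 and 54.5.

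**Figure D4:**
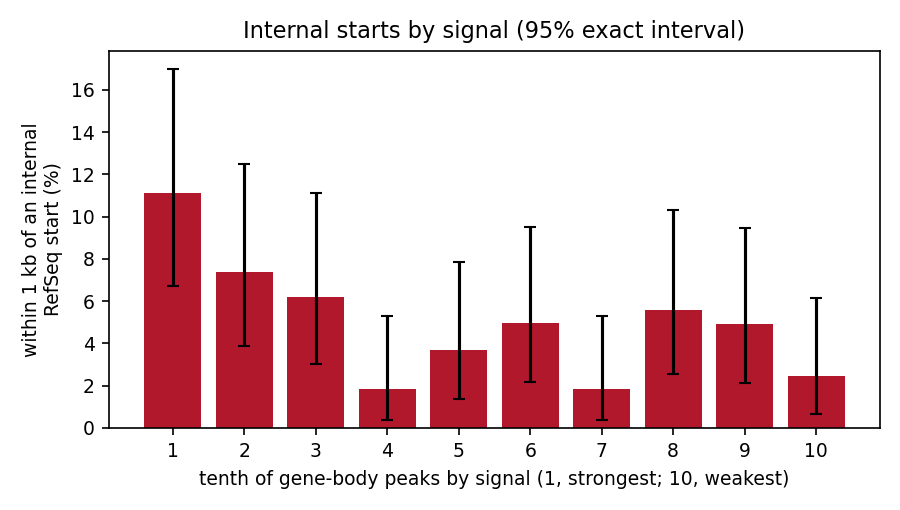
Percent of gene-body peaks within 1 kb of an internal RefSeq start, for 10 equal groups from the strongest (left) to the weakest (right), with exact 95% intervals. The strongest group stands at 11.1% and the weakest at 2.45%, and the intervals of most groups overlap.

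Ends of non-coding genes lay within 1 kb of 65 gene-body peaks (4.00%, 3.10 to 5.07), against 229 intergenic peaks (11.3%). How much of each space lies that close to such an end was not measured, so the 2 shares are not adjusted for it. Of the 65, 52 were at lncRNA genes and 3 at miRNA genes. The strongest were in Sdk2, Kcnn2 and Tshz2. The peak in Sdk2, an adhesion gene of the nervous system, had 49.5 in replicate 1, 63.1 in replicate 2 and 113 in the optimal list and lay 339 bp from an end of Gm51930. The peak in Kcnn2, a potassium channel gene, had 68.7, 35.9 and 104 in the same lists and lay 571 bp from Gm32139. That in Tshz2, a zinc finger gene, had 64.3, 39.6 and 104 and lay 4 bp from A630075F10Rik.

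Exons and sequence were examined on mm9, where a separate list of 4613 peaks gave 765 gene-body peaks (16.6%) by the same rule. Introns held 637 of them (83.3%, 80.4 to 85.8). A further 83 (10.8%, 8.73 to 13.3) were within 1 kb of an internal start of a protein-coding transcript, 14 were at a non-coding start, 10 were in a coding exon (1.31%) and 21 in another exon. Of the 637, 39.2% lay in the first intron, 17.1% in the second and 43.6% in a later one. The number is the lowest over all transcripts of the shortest host gene, so an intron can be first in a shorter transcript alone. How much intron length lies in first introns was not measured. Of the 8 strongest intronic sites, 2 were in Ssc5d and 1 each in Atrnl1, Myo5c, Cdyl2, Kdm2b, Fbxl5 and Sult2b1. Kdm2b and Fbxl5 are longer in GENCODE M1 (144413 and 77024 bp) than in RefSeq (118607 and 37532 bp), whereas Myo5c is shorter in GENCODE M1 (73438 bp) than in RefSeq (75517 bp). None of these 3 genes held a gene-body peak on mm10.

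Base composition set most gene-body sites apart from promoters. The median GC content of 200 bp around the summit was 47.0%, against 45.0% in windows 1 kb away, 47.5% at intergenic and 59.5% at promoter summits. Windows with at least 50% GC and an observed-to-expected CpG ratio of at least 0.6, as in CpG islands, were 4.84% of the gene-body windows, 6.24% of intergenic and 73.1% of promoter windows. Within gene bodies they were 24.1% (15.4 to 34.7) of the 83 windows at internal starts and 1.57% (0.755 to 2.87) of the 637 intronic windows.

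The search covered 16 motifs, as exact matches on either strand within 50 bp of a summit, against windows of the same length 500 bp to each side. CCAAT was the most frequent. It was in 220 of 765 gene-body windows (28.8%), against 11.8% of their flanks, 28.6% of intergenic and 49.5% of promoter windows. At internal starts the share was 42.2% and in introns 26.7%. Over all 32851 RefSeq start windows, from 50 bases before to 50 after the start, it was 13.6%. Those windows are centred on starts, whereas the summits shown above at internal starts lay 34 to 187 bp before the start. The shares at starts and at summits are therefore not like for like.

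Letters bound by TEAD, Esrrb, Oct4 and Sox factors, known from enhancers, were more frequent at gene-body summits than in their flanks and less frequent at promoter summits. ACATTCC (TEAD) was in 4.84% of gene-body windows, against 1.31% of flanks, 4.80% of intergenic and 0.922% of promoter windows. TCAAGGTCA, bound by the orphan nuclear receptor Esrrb, was in 15 gene-body windows (1.96%), all in introns, and in 0 of 1530 flanks. It was in 1.54% of intergenic and 0.0512% of promoter windows. ATGCAAAT, the octamer bound by Oct4, was in 2.09% of gene-body windows, against 0.458% of flanks, 2.44% of intergenic and 0.819% of promoter windows. Among gene-body peaks above the median signal of that list it was in 2 of 278 windows (0.719%) and in 0% of flanks. CATTGTT (Sox) was in 2.75%, against 1.44% of flanks.

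One of the 15 intronic sites with the Esrrb letters lay inside Esrrb itself, 140600 bp from its 5′ end, with a signal of 57.3 on mm9. The strongest of the 15 was in Thada (84.5), followed by Capn2, a calpain protease gene (70.9). These hosts were looked up after the shares were seen.

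CTCGCGAG was more frequent at internal starts than in introns. It was in 10 gene-body windows (1.31%) and 0 of 1530 flanks, against 1.09% of intergenic and 11.2% of promoter windows. Within gene bodies it was in 7.23% of the windows at internal starts (2.70 to 15.1) and 0.314% of intronic windows (0.0380 to 1.13). Of the 10 sites, 6 were at internal starts, 2 in introns and 2 in coding exons. Over all RefSeq start windows, which are centred on starts and not on summits, it was in 0.475%. Rbpj, the DNA-binding effector of Notch, had 2 such sites, with signals of 200 and 121 on mm9. The median mm9 signal of the 10 sites was 115, against 44.9 over all gene-body peaks there.

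GGGCGG (Sp) was in 3.66% of gene-body windows, against 2.09% of flanks and 26.5% of promoter windows. CCGGAAG (ETS) was in 1.31%, against 0.458% of flanks and 8.60% of promoter windows, and the CTCF core likewise in 1.31%, against 0.458% of flanks. TGACTCA (AP-1) was in 2.88%, against 1.57% of flanks and 1.27% of intergenic windows, but among the gene-body peaks above the median signal of the mm9 list it was in 2.16% of windows and 2.16% of flanks. The intervals of the other motifs included the share of their flanks, namely GCATGCG (NRF1), TGACGTCA (CREB and ATF), CACGTG (E-box), AAGATGGCG (YY1), TTCCNGGAA (STAT) and GGGTGTG (Klf). A match is a description of letters, and binding of these factors was not measured.

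**Figure D5:**
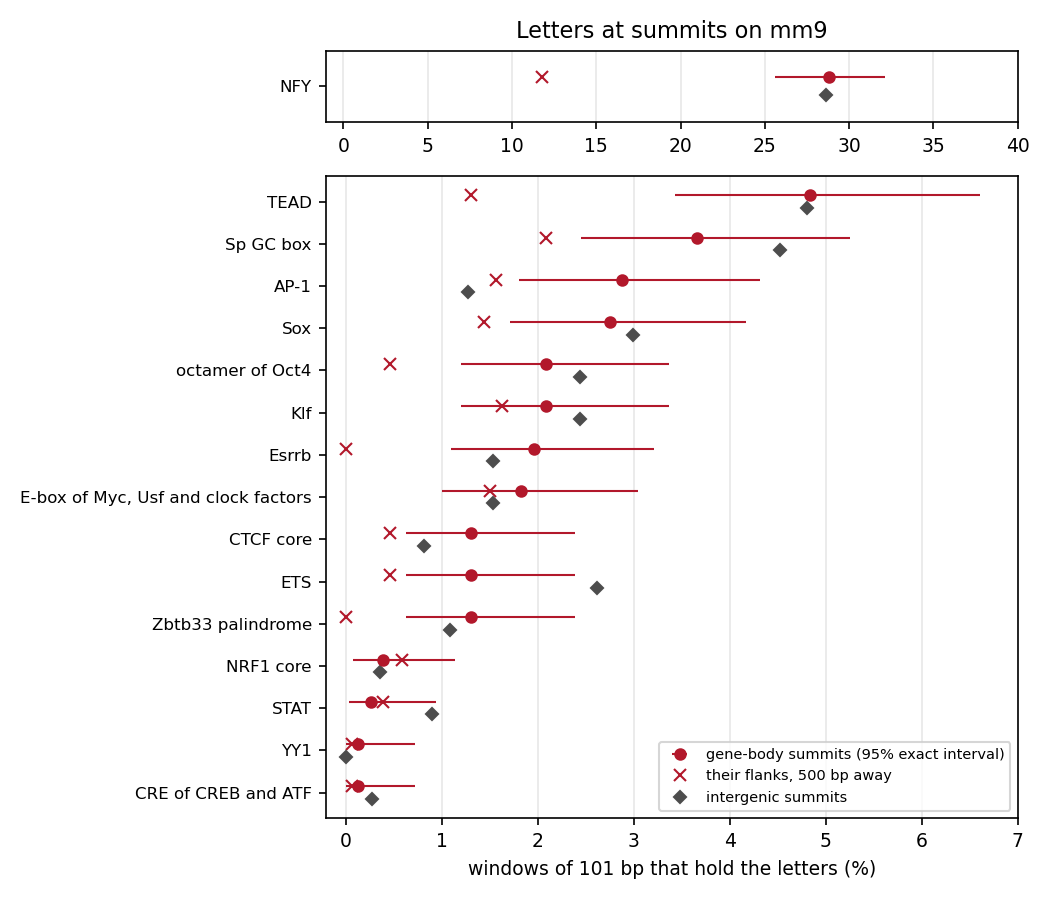
Percent of 101 bp windows that hold each motif at gene-body summits (points, exact 95% interval), in flanks 500 bp away (crosses) and at intergenic summits (diamonds), on mm9. NF-Y letters have an axis of their own and stand at 28.8% at summits and 11.8% in flanks, and the TEAD, octamer, Esrrb and palindrome intervals lie above their flanks.

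Genes of known pathways were counted in 10 lists, each beside the share expected from all genes of the same length classes. The classes are broad, and length within a class was not matched. The chromatin list had a median length of 82.7 kb, whereas all genes of 30 to 100 kb had 49.7 kb. The very long neuronal list had 1174 kb, and all genes over 300 kb had 451 kb. The part of length in the differences below was not tested. Of 58 chromatin regulators over 10 kb, 17 held a gene-body peak (29.3%, 18.1 to 42.7), against 13.8% for their length classes. The strongest was in Chd8, a remodeller of the same family as CHD2, with 55.0 in replicate 1, 94.1 in replicate 2 and 152 in the optimal list. Prdm16, a histone methyltransferase gene, had 74.1 in replicate 1, 48.0 in replicate 2 and 122 in the optimal list. Kdm6b, which removes methyl groups from lysine 27 of histone H3, had 49.4, 51.2 and 101 in the same lists. Weaker peaks were in Chd5, Chd7 and Chd9, in Tet2 and Tet3 and in Dnmt3a and Dnmt3b. The Chd7 peak had 16.8 in replicate 1, 21.9 in the optimal list and no match in replicate 2. The 2 peaks in Chd9 had 13.5 and 6.02 in the optimal list and ranked 32879 in replicate 2. No peak of Chd7 or Chd9 was in the conservative list. Those of Chd5, Tet3, Dnmt3a and Dnmt3b were, as was the stronger in Tet2. The Dnmt3a peak lay 286 bp from an internal start.

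Of 19 pluripotency genes over 10 kb, 4 held a peak (21.1%, 6.05 to 45.6), against 9.32% for their length classes. Esrrb held 4 peaks, the strongest with 36.3 in replicate 1, 18.2 in replicate 2 and 57.3 in the optimal list. Tet2, which oxidises methylated cytosine, held 2, the stronger with 31.1, 21.6 and 51.9 in the same lists. Etv5, an ETS factor, held 4, the strongest with 19.8, 18.8 and 36.3. The interval of this list includes the share of its length classes.

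Of 34 genes of the Hippo pathway, adhesion and actin, 9 held a peak (26.5%, 12.9 to 44.4), against 13.8%. Tead1, which encodes a factor that binds ACATTCC, had 27.9 in replicate 1, 14.1 in replicate 2 and 44.4 in the optimal list. Nf2, an upstream Hippo component, had 27.2, 13.0 and 36.1 in the same lists, and Ctnna1, a catenin of adherens junctions, 6.43, 16.8 and 24.8. Of 28 genes of FGF-ERK and receptor tyrosine kinases, 6 held a peak (21.4%), against 13.1%. Igf1r, an insulin-like growth factor receptor, had 52.7 in replicate 1, 76.6 in replicate 2 and 132 in the optimal list. The adaptor gene Gab1 had 27.8, 35.2 and 63.2, and Egfr 8.60, 19.4 and 29.8. The Egfr peak ranked 16393 in replicate 1 and 3144 in replicate 2.

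For the Wnt pathway the share was 13.8% (4 of 29), the same as for its length classes. Lef1, a nuclear effector of Wnt, had 65.4 in replicate 1, 51.1 in replicate 2 and 117 in the optimal list, and a further peak with 76.7. The co-repressor gene Tle1 had 33.3 and the ubiquitin ligase gene Rnf43 21.5 in the optimal list. Of 23 TGF-beta, BMP and Nodal genes, 4 held a peak (17.4%), against 13.2%, with the strongest in Ski (47.4), Smad9 (29.0) and Bmpr1b (21.4). Of 18 clock genes, 4 did (22.2%), against 10.5%. They were Arntl (269), Clock (36.0), Npas2 (28.7) and Per3 (21.7), the values being optimal signals.

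Very long neuronal genes held peaks in 13 of 34 (38.2%, 22.2 to 56.4), against 33.4% for their length classes. Among them were Nrg1, a growth factor gene, with an optimal signal of 84.2, and Csmd1, with 65.3. Of 16 p53 genes only Zmat3 held one (6.25%), against 4.84%. Of 17 fibroblast markers, listed because ES cells can be grown on feeder cells, only Postn did (5.88%, optimal signal 39.8), against 9.48%. The intervals of all lists but the chromatin one include the share of their length classes. Lists were chosen with results known, so these shares carry no test.

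Just inside the 10 kb limit lay Hnrnpf (10057 bp, signal 20.5) and Ipmk (10060 bp, 39.7), and just outside Lemd1 (9970 bp, 10.7) and Cacna2d2 (9910 bp, 29.3). The 49 gene-body peaks at 10 to 11 kb had a median of 26.7, and the 53 in-gene peaks at 9 to 10 kb had a median of 27.6.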

How the data were processed

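ChIP-seq peaks of 2 biological replicates of 1 group were analysed. Per the deposited descriptions, the authors made the optimal and conservative lists by the irreproducible discovery rate procedure from relaxed lists of each replicate and of the pooled reads. No source used here names the aligner or the caller, and the control was not analysed. The deposited signal of a peak is the authors' own value with no stated normalization. The deposited −log10 q-value entered no result. How the caller ended its lists at 300000 peaks, or treated a control, can shift signals and counts.

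Summits were the deposited start plus offset plus 1. Peaks on mm10 were placed relative to the RefSeq annotation (GRCm38.p6). Strand came from RefSeq starts or, failing that, GENCODE M1 by symbol, for 21531 of 21900 protein-coding genes (98.3%). Genes without strand gave no 5′ end, so a peak near such an end could be counted. With both ends of these genes used as 5′ ends, 1610 peaks were counted (19.4% of the list). Exons and motifs used the mm9 list with GENCODE M1 and the NCBIM37 genome, and no coordinate was moved between builds. Recurrence was an overlap of 1 bp or more with a replicate's 8282 strongest peaks, and values per replicate are those of the strongest overlapping peak. Allowed gene body is the length inside genes and over 10 kb from every 5′ end.

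Shares carry exact Clopper-Pearson 95% intervals. Peaks and genes are not replicates, so no test was made. Named genes were the 12 strongest peaks, the 6 genes with the most, up to 3 hosts per list (1 is not reported here), the 3 largest rank differences, the 3 strongest at non-coding ends, 2 on each side of the 10 kb limit and the 8 strongest mm9 intronic summits. Per3, Tex9, Psma6, Dmd, Thada, Capn2, Rbpj, the Esrrb window, the protocadherins and the further chromatin genes were named after their values were seen. The members and lists were chosen with earlier results of these data known. The class rule, the lengths and the motif search were tested on simulated data. Python 3.11.15, pandas 2.3.3, numpy 2.4.6, scipy 1.17.1 and matplotlib 3.10.9 were used. Alternatives were other lists, distances, strands, overlaps and windows.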

Additional observations from a re-analysis of the deposited data

How the results depend on the processing

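No paired analysis was possible because there was 1 group. Of 76 alternative values, 48 stayed within the interval or replicate spread of the reported value and 28 moved. The shares among them have no direction that could change. All alternative ratios to the promoter median stayed below 1, and all alternative density ratios stayed above 1. With 1 replicate's own list in place of the optimal one, the share of the list was 19.5 to 19.9%, the median ratio 1.00 to 1.02 to intergenic and 0.696 to 0.741 to promoter peaks, the density ratio 1.28 to 1.32, the share of host genes 8.79 to 9.23% and the share at non-coding ends 3.04 to 3.54%. The conservative list gave 18.3% of the list, ratios of 1.03 and 1.25 (median and density, to intergenic) and 7.42% of genes. The stronger part of the optimal list, 4141 peaks, gave 16.0%, a median ratio of 1.03 and 4.37% of genes, with 610 host genes, since fewer peaks were counted. The pooled relaxed list gave ratios of 1.01 and 1.25. A limit of 5 kb gave 23.6% of the list and 10.1% of genes, and 20 kb gave 14.9% and 6.32%. Recurrence was 60.8%, 61.3% and 39.9% (replicate 1, replicate 2, both) when at least 50% of the peak had to be covered, and 82.5%, 86.5% and 70.9% with 20000 peaks per replicate. On mm9, a start window of 500 bp gave 86.9% in introns and 7.58% at internal starts, and the stronger peaks gave 13.7% at internal starts. Of the motif shares, 19 alternative values stayed within the interval of the reported share and 13 moved. Among the stronger peaks CCAAT was in 36.3% (flanks 11.5%), ACATTCC in 3.60% (1.44%), TCAAGGTCA in 1.44% (0%), CTCGCGAG in 2.16% (0%) and CATTGTT in 1.80% (1.08%). With 100 bp on each side of the summit they were in 38.7% (22.0%), 7.84% (2.55%), 2.75% (0.261%), 1.44% (0%) and 5.23% (2.61%). Chosen after seeing the data, counting overlapping peaks once gave a median ratio of 1.02, and leaving out internal starts a density ratio of 1.24. Read depth is unknown, so weak peaks found in 1 replicate cannot be told from peaks missed in the other.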
